A study of Mus musculus with 6 samples.

Results

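Heat shock proteins and J-domain chaperones were examined in islets from male OF1 mice (10 weeks of age) that received bisphenol A (BPA) or corn oil vehicle. The members were all probe sets of the array whose only gene symbol begins with Hspa, Hspb, Dnaja, Dnajb or Dnajc and a digit, or is Hsp90aa1, Hsp90ab1, Hsp90b1, Hsph1, Hspd1, Hspe1 or Hsf1. This rule found 169 of 45101 probe sets, which stand for 70 genes of 18194 named by single-gene probe sets. Of these genes 27 were of the Dnajc family, 13 each of Dnajb and Hspa, 8 of Hspb and 4 of Dnaja, and the rest were Hsp90aa1, Hsp90b1, Hsph1, Hspd1 and Hspe1. No probe set was listed under Hsp90ab1 or Hsf1 alone, and these genes were not analysed here. The 3 probe sets listed under Dnajc19 together with a pseudogene were left out by the rule.

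The BPA group held 3 samples and the vehicle control group 3 samples, each on its own array. BPA is a building block of polycarbonate plastics that binds oestrogen receptors, and the study asks what short exposure in the animal does to islets. The labels give conflicting accounts of the dose. The series' design gives 100 µg/kg/day under the skin for 4 days, in injections of 50 µg/kg, with 100 µL of vehicle for controls and islets taken 16 hours after the last injection. The treatment protocol gives 2 days, whereas 1 nM over 48 hours stands in the source name of each BPA sample. The number of mice behind a sample is not stated, so p-values measure the spread between these samples. All animals were of 1 outbred stock, with no transgene named.

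Chaperones of the Hsp70 family (Hspa genes) hold unfolded stretches of other proteins in a cycle driven by ATP. J-domain proteins (Dnaja, Dnajb and Dnajc genes) bring them clients and speed their ATP hydrolysis, and Hsp110 proteins such as Hsph1 act as their nucleotide exchange factors. Hsp90 proteins take over later folding steps, and small heat shock proteins (Hspb genes) keep unfolding proteins soluble. The transcription factor Hsf1 binds heat shock elements in the promoters of the inducible members. Beta cells make large amounts of proinsulin in the endoplasmic reticulum (ER), whose lumen holds its own set, led by Hspa5 (BiP) and Hsp90b1 (Grp94).

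These bases are shown because the element is what Hsf1 binds, and the search did not use the array values. It was searched in the RefSeq promoter table (GRCm38.p6, windows of 250 bases before and 50 after each annotated start) as GAA, TTC and GAA in that order with any 2 bases between them, on both strands. Promoter windows were found for 57 of the 70 genes, 74 windows in all. Hsp90aa1 and Hspa8 were among the genes without one. The element was present in 6 member windows (8.11%), of 4 genes, against 0.603% of all 32851 windows. Dnajb6 and Hsph1 were each counted in overlapping windows that hold the same match. By gene the shares were 7.02% of members and 0.662% of all. A match is a run of letters and not a shown binding site, and elements that depart from this pattern were not searched. Hspa1a, Hspa1b, Dnajb1 and Hspb1 had no match or no window. Capitals mark the matched bases, in the 5′ to 3′ direction of each gene. Hspd1 and Hspe1, the mitochondrial chaperonin and its cofactor, lie head to head, and their windows hold the same bases read on opposite strands, with a pair of overlapping matches.
Hspd1 (chr1:55088034-55088101, minus strand): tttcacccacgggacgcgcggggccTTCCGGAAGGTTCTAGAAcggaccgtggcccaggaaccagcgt
Hspe1 (chr1:55088034-55088101, plus strand): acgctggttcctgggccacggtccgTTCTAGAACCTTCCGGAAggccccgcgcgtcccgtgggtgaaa
Dnajb6 (chr5:29735827-29735889, plus strand): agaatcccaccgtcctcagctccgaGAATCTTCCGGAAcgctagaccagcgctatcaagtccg
Hsph1 (chr5:149636280-149636308, minus strand, after the annotated start): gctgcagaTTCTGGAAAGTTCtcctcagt

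The array is an Affymetrix 3′ expression array with 1 log2 signal per probe set. Median signals per array ran from 6.55 to 6.65. A probe set was tested if its mean over the 6 arrays exceeded the median of all (6.60), which kept 22518 probe sets. Of the 169 members 128 passed, of 59 genes. The 41 others had means of 3.46 to 6.60 and BPA minus control values of -0.38 to 0.38, 29 of them positive and 12 negative, and were not tested. No tested probe set stood for 11 genes: Hspa1l, Hspb2, Hspb3, Hspb7, Hspb9, Dnajb3, Dnajb7, Dnajb8, Dnajb13, Dnajc5b and Dnajc5g.

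The groups were compared by limma's moderated test over all 22518 probe sets, with Benjamini-Hochberg adjustment. None of the 128 tested members passed an adjusted p of 0.05, where 0% of all probe sets passed, and the smallest adjusted p was 0.655 for members and for the table. At an unadjusted p under 0.05 there were 12 members (9.38%), against 6.47% of all tested probe sets. Lower signal after BPA accounted for 10 of the 12 (7.81% of members, background 2.64%) and higher signal for 2 (background 3.84%). The groups did not overlap for 12 members with lower signal (9.38%, background 4.35%) and for 5 with higher signal (3.91%, background 7.83%). By mean, 77 of 128 members were lower after BPA (60.2%), against 47.4% of all. Their median BPA minus control was -0.037 on the log2 scale, with quartiles of -0.19 and 0.076, and that of all tested probe sets was 0.011, with quartiles of -0.12 and 0.13. The member median turned to 0.025 without BPA replicate 3, in which 45 of the 128 members had their lowest value. For that count no share over all tested probe sets was taken. Both replicate 3 arrays were together the lowest for 22.7% of members and 21.3% of all tested probe sets. They were together the highest for 7.03% of members and 14.6% of all. The member count at an unadjusted p under 0.05 was 20 without BPA replicate 3, where 3162 of 22518 probe sets had such a p. It was 22 without control replicate 2, where 1157 of 22518 did. In the main fit 1458 of 22518 did.

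**Figure D1:**
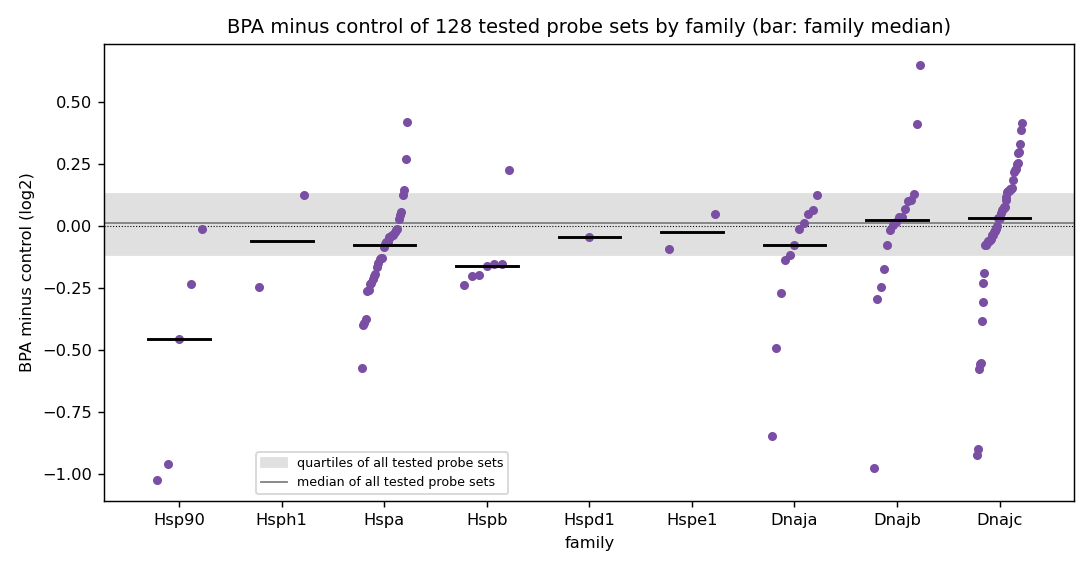
BPA minus control (log2, vertical axis) of the 128 tested member probe sets by family (horizontal axis). Points are probe sets, black bars family medians, and the grey band and line the quartiles and median of all tested probe sets. All 5 Hsp90 points lie below 0, and the Hspa and Hspb medians (-0.080 and -0.16) lie below those of Dnajb (0.025) and Dnajc (0.032).

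The cytosolic chaperone gene Hsp90aa1, which encodes the inducible Hsp90, had lower mean signal after BPA on each of its 3 tested probe sets. On 1426645_at it read 12.33, 11.77 and 12.23 in BPA islets, against 13.51, 12.60 and 13.10 in controls. Every BPA array lay below every control array, and the difference was -0.96 ± 0.25 (log2, SE, adjusted p = 0.655 by limma). On its brightest probe set, 1438902_a_at, it read 13.18, 13.19 and 13.00 in BPA islets and 13.46, 13.41 and 13.20 in controls, again without overlap but with a smaller difference of -0.23 ± 0.10 (SE, adjusted p = 0.786). On 1437497_a_at the difference was -0.46 ± 0.17, and BPA replicate 3 (12.45) lay above control replicate 2 (12.38). The 3 probe sets shared a direction, at sizes from -0.96 to -0.23. Of the untested probe sets of this gene, 1433251_at differed by 0.064 and 1441827_x_at by -0.12.

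Hsp90b1, the Hsp90 of the ER lumen, showed, with Dnajb14, the widest gap between probe sets of a member gene. On 1438040_a_at it read 12.16, 11.49 and 11.40 in BPA islets, against 12.78, 12.72 and 12.62 in controls. The difference was -1.02 ± 0.20 (SE, adjusted p = 0.655), so that controls had 2.04 times the signal of BPA islets. On its brighter probe set, 1415889_a_at, it read 13.20, 13.26 and 13.13 in BPA islets and 13.06, 13.31 and 13.25 in controls, with overlapping groups and a difference of -0.013 ± 0.092. The groups were separated on 1 of the 2 probe sets, and neither difference passed the test.

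Hsph1, the Hsp110 exchange factor, also gave different values on its 2 probe sets. On 1425993_a_at it read 12.92, 12.86 and 13.07 in BPA islets, against 13.10, 13.14 and 13.34 in controls. These groups did not overlap, though the highest BPA value lay only just below the lowest control value, and the difference was -0.25 ± 0.10 (SE, adjusted p = 0.748). On 1423566_a_at the means were 9.09 ± 0.22 in BPA islets and 8.96 ± 0.05 in controls (SD, n = 3 per group), a difference of 0.12 ± 0.14.

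The Hspa family had 34 tested probe sets of 12 genes, of which 27 were lower after BPA, with a median of -0.080 and a range of -0.57 to 0.42. Hspa1b, which encodes a strictly stress-inducible Hsp70, was lower by mean on all 3 probe sets, by -0.57 ± 0.26, -0.40 ± 0.21 and -0.26 ± 0.16 (SE, adjusted p = 0.791, 0.802 and 0.839). On 1427126_at it read 12.75, 13.23 and 12.63 in BPA islets, against 13.50, 12.95 and 13.89 in controls. The groups overlapped, because BPA replicate 2 lay above control replicate 2, and the controls alone spanned more than the group difference. Without control replicate 3 the differences were -0.35, -0.22 and -0.13 on the 3 probe sets, in the same order. Its near-identical neighbour Hspa1a differed by -0.38 ± 0.25 on its single probe set and by -0.15 without control replicate 3, and signals of these 2 genes cannot be told apart with certainty.

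Hspa8, the constitutive Hsc70, had its smallest spread on 1455789_x_at, with 13.58, 13.53 and 13.50 in BPA islets and 13.77, 13.70 and 13.79 in controls. That difference was -0.22 ± 0.07 (SE, adjusted p = 0.674) without overlap. On its other bright probe set, 1420623_x_at, it was only -0.016 ± 0.085. Probe set 1431182_at read 9.93 and 10.16 on the replicate 3 arrays of BPA and control, and 8.27 to 8.73 on the 4 other arrays, so its difference of -0.23 ± 0.54 was far smaller than its spread. Hspa4l, an Hsp110 relative of Hsph1, had probe sets that lay close together: all 5 differed by -0.26 to -0.15. On 1439093_at, the only one without overlap, it read 8.93, 8.82 and 8.77 in BPA islets and 9.12, 9.05 and 9.04 in controls (adjusted p = 0.791). BiP (Hspa5) differed by -0.13 ± 0.10, 0.042 ± 0.195 and -0.047 ± 0.106. No direction was shared by the 3 probe sets of BiP.

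**Figure D2:**
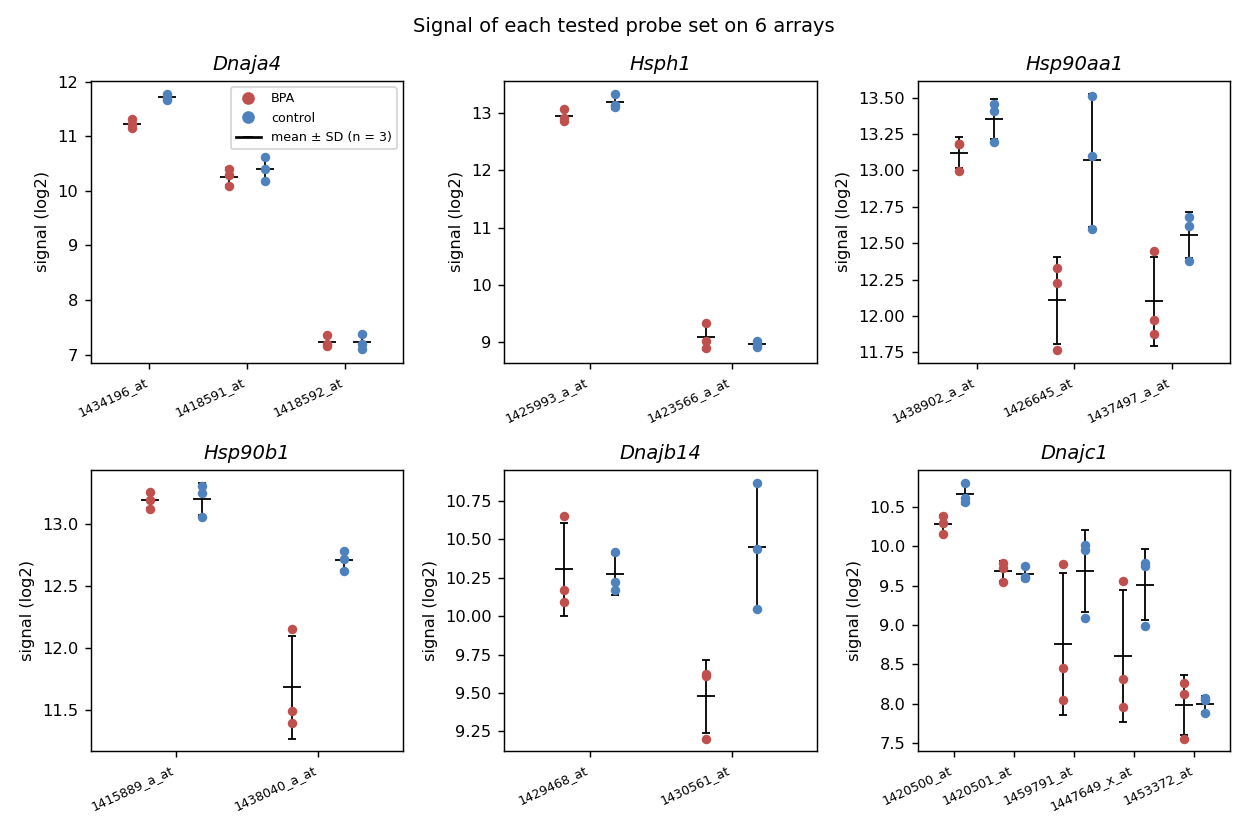
Log2 signal (vertical axis) of each tested probe set (horizontal axis, brightest at left) of 6 named genes, with BPA arrays (red, left) and control arrays (blue, right) as points and mean ± SD in black (n = 3 per group). Dnaja4 1434196_at, Hsp90b1 1438040_a_at and Dnajb14 1430561_at show separated groups, while another probe set of each gene shows overlapping ones.

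The Hspb family, taken by gene symbol, had 7 tested probe sets of 4 genes, 6 of them lower by mean after BPA (median -0.16). Hspb1 (Hsp25 in mouse) differed by -0.16 ± 0.15 and -0.20 ± 0.13 (SE) on its 2 probe sets, with overlapping groups. Hspb8, which works with the co-chaperone Bag3, read 10.13 on each BPA array of 1456434_x_at, against 10.16, 10.32 and 10.37 in controls, a difference of -0.15 ± 0.10. On 1417014_at it differed the other way, by 0.23 ± 0.11, with 7.03, 6.80 and 6.90 in BPA islets and 6.60, 6.67 and 6.78 in controls. Neither of these 2 probe sets had overlapping groups, and they pointed in opposite directions. Hspb11, also known as Ift25, a part of the intraflagellar transport machinery, differed by -0.24 ± 0.15. The mitochondrial chaperonins, whose shared promoter bases are printed above, lay close to 0: Hspd1 differed by -0.045 ± 0.131, and Hspe1 by -0.095 ± 0.118 and 0.045 ± 0.112.

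Dnaja4, a cytosolic co-chaperone of Hsp70, had the smallest p of all members. On 1434196_at it read 11.31, 11.22 and 11.15 in BPA islets, against 11.67, 11.70 and 11.78 in controls. The 2 groups were tight and far apart: 11.22 ± 0.08 in BPA islets and 11.72 ± 0.05 in controls (SD, n = 3 per group), a difference of -0.49 ± 0.09 (SE, unadjusted p = 0.00118, adjusted p = 0.655 by limma). Over 15 alternatives it stayed between -0.54 and -0.42. The other tested probe sets of Dnaja4 did not show this. On 1418591_at the arrays read 10.09, 10.30 and 10.39 after BPA and 10.17, 10.40 and 10.62 in controls, and on 1418592_at 7.19, 7.35 and 7.16 after BPA and 7.10, 7.20 and 7.38 in controls. Those differences were -0.14 ± 0.15 and 0.0095 ± 0.1227, with overlap on both.

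Among the other Dnaja genes, Dnaja1 differed by 0.064, -0.12 and -0.27 on its 3 probe sets. Dnaja2 differed by -0.85 ± 0.31 (SE, adjusted p = 0.734) on 1457233_at, with 7.65, 7.97 and 8.83 in BPA islets and 9.10, 8.74 and 9.15 in controls, and by -0.078 to 0.047 on the 3 others. Dnaja1 and Dnaja2 are general cytosolic partners of Hsp70. BPA replicate 3 overlapped the controls on 1457233_at.

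Dnajb genes had 6 lower and 10 higher tested probe sets by mean. Dnajb1 (Hsp40), the inducible J-domain partner of Hsp70, read 12.95, 13.37 and 13.27 in BPA islets on 1416755_at, against 13.55, 12.86 and 14.05 in controls. Controls spanned the whole range of BPA values, and the difference was -0.29 ± 0.29 (SE), or -0.25 ± 0.21 on the other probe set. Without control replicate 3 it was -0.012 on 1416755_at and -0.015 on 1416756_at. Dnajb14, anchored in the ER membrane, read 9.61, 9.62 and 9.20 in BPA islets on 1430561_at, against 10.87, 10.44 and 10.05 in controls. This difference of -0.98 ± 0.23 (adjusted p = 0.655) met one of 0.035 ± 0.173 on its brighter probe set. Dnajb9, an ER luminal co-chaperone of BiP, differed by 0.0044 ± 0.0834.

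The 2 members with higher signal at an unadjusted p under 0.05 were both Dnajb genes. Dnajb6, which suppresses protein aggregation and holds a heat shock element match, read 7.46, 7.42 and 6.78 in BPA islets on 1429776_a_at, against 6.67, 6.29 and 6.76 in controls, and thus differed by 0.65 ± 0.22 (SE, adjusted p = 0.711). The lowest BPA value and the highest control value, both from replicate 3, nearly met. The control mean (6.57) lay below the filter, so this probe set was tested only through its BPA arrays and its p carries no weight as support. On the brightest Dnajb6 probe set the difference was 0.13 ± 0.13, and on the untested 1429777_at it was -0.38. Dnajb5 read 7.80, 8.04 and 7.76 in BPA islets on 1450436_s_at, against 7.51, 7.35 and 7.51 in controls, a difference of 0.41 ± 0.13 (adjusted p = 0.674), and differed by 0.099 ± 0.106 on 1421962_at.

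The Dnajc family, in which the J domain is joined to many other protein parts, had 23 lower and 27 higher of 50 tested probe sets. Dnajc1, an ER membrane protein, read 10.39, 10.15 and 10.29 in BPA islets on 1420500_at, against 10.61, 10.57 and 10.81 in controls (-0.38 ± 0.12, SE, adjusted p = 0.674). On 1420501_at it differed by 0.031 ± 0.116. Probe sets 1459791_at and 1447649_x_at differed by -0.92 ± 0.47 and -0.90 ± 0.43 with wide spread: BPA replicate 3 (9.78 and 9.56) lay within the control range on both, and without it the differences were -1.43 and -1.37. Dnajc21, which acts in ribosome assembly, read 9.26, 8.73 and 9.04 in BPA islets on 1457281_at and 9.77, 9.42 and 9.57 in controls (-0.58 ± 0.17, adjusted p = 0.674), and differed by 0.14 ± 0.14 on its brightest probe set. Dnajc2, a ribosome-bound co-chaperone, differed by -0.56 ± 0.24 on 1448794_s_at and by -0.080 ± 0.113 on 1417657_s_at. On 1448794_s_at control replicate 1 (8.44) stood above the other controls (7.60 and 7.67), and without it the difference was -0.29. Dnajc10 (ERdj5), a disulfide reductase of the ER, differed by 0.30, 0.22 and 0.25 on its 3 probe sets, all with overlapping groups. Dnajc8, a nuclear J-domain protein found with splicing factors, differed by -0.054 and 0.23.

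Probe sets of a gene were set against each other directly. For every gene with several tested probe sets, the within-array difference of each other probe set minus the brightest was tested for BPA against control by limma, over 7599 pairs of the whole table. Members gave 69 pairs of 37 genes, and none passed the adjusted threshold (background 0%, smallest adjusted p 0.526). At an unadjusted p under 0.05 there were 10 member pairs (14.5%), of 9 genes, against 8.36% of all pairs. The other probe set had the lower BPA minus control value in 6 of the 10, in Hsp90b1, Dnajb14, Hsp90aa1, Hspa1b and 2 pairs of Dnajc21. It had the higher BPA minus control value in 4, in Dnaja4, Dnajc1, Hspb8 and Dnajb5. The pair of Hsp90b1 had the smallest p, with a log2 difference between its probe sets of -1.04, -1.77 and -1.73 in BPA islets and -0.28, -0.59 and -0.63 in controls, a shift of -1.01 ± 0.21 (SE, adjusted p = 0.526). For Dnaja4 1418592_at minus 1434196_at the log2 difference was -4.12, -3.87 and -3.98 in BPA islets and -4.57, -4.51 and -4.40 in controls, a shift of 0.50 ± 0.13 (adjusted p = 0.563). Neither set of 3 values overlapped the other in these 2 pairs.

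**Figure D3:**
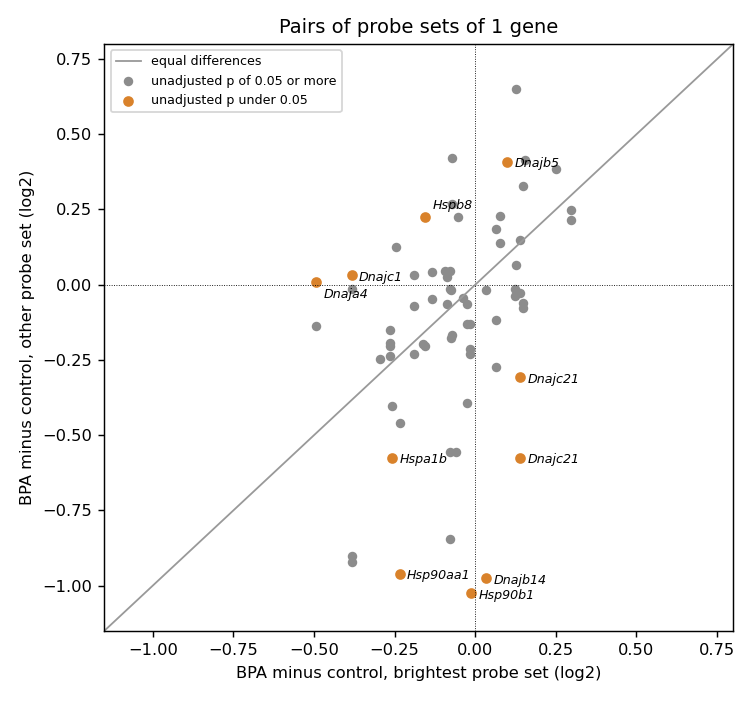
BPA minus control (log2) of the other probe set (vertical axis) against that of the brightest probe set of the same gene (horizontal axis), for 69 pairs of 37 member genes. Orange points are the 10 pairs at an unadjusted p under 0.05. Hsp90b1 and Dnajb14 lie near 0 on the horizontal axis and at -1.02 and -0.98 on the vertical axis.

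Of the 37 genes with several tested probe sets, 12 had all of them lower by mean after BPA, 8 had all of them higher and 17 had both directions. The 12 included Hsp90aa1, Hsp90b1, Hspa8, Hspa1b, Hspa4l, Hspb1, Dnajb1 and Dnajc2, and also Hspa13, Hspa12a, Dnajb4 and Dnajc13. The 8 were Dnajb5, Dnajb6, Dnajc10, Dnajc11, Dnajc14, Dnajc17, Dnajc18 and Dnajc24. Dnajb6 counts here with a probe set that passed the filter only through its BPA arrays, and its untested probe set was lower. Among the 22 genes tested by 1 probe set 9 were lower. Names of Affymetrix probe sets ending in _x_at mark probes that may also bind other transcripts. All 9 tested member probe sets of this kind were lower by mean, with a median of -0.20, where 51.8% of all 1578 tested probe sets of this kind were lower, and they stood for Hspa8, Hspa1b, Hspa5, Hspa9, Hspb1, Hspb8, Dnajc1 and Dnajc21. Of the 21 member probe sets designed on RefSeq transcripts 10 were lower (median 0.0044). Of the 107 classed as other sequences, some of which have no design sequence listed, 67 were lower (median -0.045). Among all tested probe sets, 34.4% of those designed on RefSeq transcripts and 47.0% of those classed as other sequences were lower.

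The members were further grouped by place and inducibility, in lists drawn up with earlier results of these data known. Of 34 tested probe sets of 13 heat-inducible genes (Hspa1a, Hspa1b, Hspa8, Hspa4l, Hsph1, Hsp90aa1, Dnajb1, Dnaja1, Dnaja4, Hspb1, Hspb8, Hspd1 and Hspe1) 29 were lower by mean after BPA, with a median of -0.20, and 5 had an unadjusted p under 0.05, all lower. Over all tested probe sets 47.4% were lower by mean, and 2.64% were lower at an unadjusted p under 0.05. The count of 29 of 34 holds for the genes listed, and another choice of genes could change it. Members outside the list include Hspa4, at -0.073, 0.27, 0.42 and -0.17, and Dnajb5, at 0.099 and 0.41. The list holds Hspa8, called constitutive above, whose 4 tested probe sets were all lower by mean. It leaves out Dnajb6, which holds an element match and whose 3 tested probe sets were all higher by mean (0.066 to 0.65). The value of 0.65 is from 1429776_a_at, tested only through its BPA arrays, and the untested 1429777_at differed by -0.38. With each array left out in turn 26 to 31 of the 34 were lower and the median ran from -0.22 to -0.15. A mean by array was taken over the brightest probe set of each of the 13 genes, relative to the mean of the 6 arrays. It lay at -0.104, -0.064 and -0.129 in BPA islets and at 0.122, -0.003 and 0.178 in controls. The other probe sets of these genes did not enter it. Control replicate 3 held the highest value for 15 of the 34 probe sets, and for 23 of all 128 tested members. A list of 8 ER genes (Hspa5, Hsp90b1, Hspa13, Dnajb9, Dnajb11, Dnajc1, Dnajc3 and Dnajc10, 23 probe sets), which leaves out Dnajb14 and Dnajb12, had 15 lower and a median of -0.047, with BPA replicate 3 lowest (-0.204). Mitochondrial members (6 genes, 10 probe sets) had 4 lower and a median of 0.035.

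**Figure D4:**
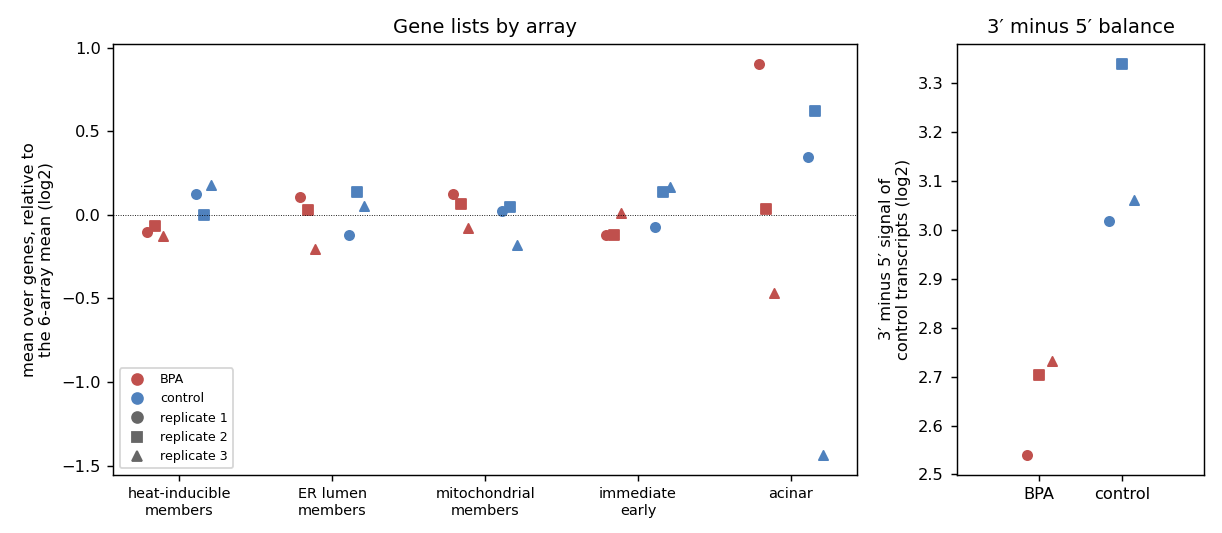
Left, mean over the genes of each list by array, each gene by its brightest probe set, relative to the mean of the 6 arrays (log2, vertical axis). Right, 3′ minus 5′ signal of control transcripts by array (log2). BPA arrays are red, control arrays blue, and marker shapes give the replicate. BPA and control arrays separate for heat-inducible members (highest BPA array -0.064, lowest control array -0.003) and for the balance (BPA at most 2.73, control at least 3.02).

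Other chaperones and co-chaperones, a list of 39 genes of which 37 were tested, were counted beside the members. Of their 66 tested probe sets 36 were higher and 30 lower by mean (median 0.019), 5 had an unadjusted p under 0.05, all higher, and none passed after adjustment. Over all tested probe sets 6.47% had such a p, 3.84% with higher signal. The 3 genes with the smallest p were Hspbp1, Fkbp4 and Unc45a. Hspbp1, an Hsp70 exchange factor, read 9.12, 9.22 and 9.09 in BPA islets, against 8.32, 8.63 and 8.67 in controls, without overlap (0.60 ± 0.13, SE, adjusted p = 0.655). Fkbp4 (FKBP52), an Hsp90 partner in steroid receptor complexes, differed by 0.44 ± 0.12 on 1416362_a_at (adjusted p = 0.674) and by -0.18 ± 0.36 on its other tested probe set. Unc45a, a myosin chaperone that binds Hsp90, differed by 0.45 ± 0.15, 0.17 ± 0.15 and 0.30 ± 0.14 on its 3 tested probe sets.

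Other measures of the samples moved beside these values. Averaged over 3 control transcripts, the 3′ signal minus the 5′ signal, a measure of RNA integrity and labelling, was 2.54, 2.70 and 2.73 in BPA islets and 3.02, 3.34 and 3.06 in controls (exact permutation p = 0.1, two-sided, the smallest that 3 against 3 arrays allow). The separation lay in actin (2.61 to 2.98 in BPA islets, 3.35 to 3.80 in controls) and Gapdh (2.58 to 2.99 in BPA islets, 3.40 to 3.79 in controls). Transferrin receptor overlapped, with 2.22 to 2.42 in BPA islets and 2.10 to 2.43 in controls. Immediate early genes, which handling of tissue can induce, lay at -0.123, -0.120 and 0.011 in BPA islets and at -0.071, 0.135 and 0.168 in controls relative to the 6-array mean (exact permutation p = 0.2, two-sided). By mean 11 of their 15 tested probe sets were lower and 4 higher. At an unadjusted p under 0.05 (limma) 3 of the 15 were lower and 0 higher, against 2.64% and 3.84% of all tested probe sets. Of 10 acinar markers 8 were on the array, all 8 tested, at 0.905, 0.035 and -0.468 in BPA islets and 0.348, 0.619 and -1.438 in controls, and their summed level (log2) ran from 16.61 to 17.63 in BPA islets and from 15.57 to 17.51 in controls. All 14 tested acinar probe sets were higher by mean after BPA, though the groups overlapped. Stellate and fibroblast markers (7 of 7 tested) had 9 of 10 tested probe sets higher and 1 lower by mean, also with overlapping groups. List means and sums took every marker on the array, tested or not, each by its brightest probe set. Nerve and glia markers (5 of 6 on the array, 4 tested) lay higher in all 3 BPA arrays, at 0.092 to 0.360, against -0.467 to 0.057 in controls, a separation lost after median centring. Their summed level (log2) ran from 10.88 to 11.28 in BPA islets and from 10.40 to 10.69 in controls. Immune markers (7 of 7 on the array, 6 tested) averaged 0.617 in BPA replicate 1 and -0.357 to 0.042 on the 5 other arrays, and their groups did not overlap after median centring. The part of these measures in the member values was not tested. Islet hormone genes were bright on all arrays (Ins2 15.24 to 15.32). The highest signal of each array also ran from 15.24 to 15.32. Ins2 thus lay at the top of the scale, where differences in endocrine content may not show. Fewer cells of a type and less RNA per cell cannot be told apart in whole islets.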

How the data were processed

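The authors deposited 1 log2 signal per probe set and array. Per the submitters' processing notes, which name MAS5 with no version, the step it served is unknown, and it is not settled that these values are plain MAS5 signals; summarisation and scaling are not given in the sources used here. Values were used as deposited, so differences and folds hold on that scale. Genes came from the platform annotation: of 45037 probe sets other than 64 array controls, 34945 had 1 gene, 932 several and 9160 none. The unit of the values was read from their range. Groups and replicate numbers came from the sample titles.

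Differences were fitted with limma (version 3.58.1, R 4.3.3) by lmFit and eBayes with a trend, as two-sided tests adjusted by Benjamini-Hochberg over 22518 probe sets at a threshold of 0.05, without a replicate block. In simulated arrays it recovered 48.6% of probe sets changed by 1 and 87.4% changed by 2 (log2), with 100 of each among 22518, and the pair test 88% of pairs shifted by 2, with 200 among 7599. List means and the 3′ to 5′ balance were tested by exact permutation of the arrays. The members, gene lists and rules were chosen with earlier results of these data known. Genes named with values were Dnaja4, Hsph1, Hsp90aa1, Hsp90b1, Hspd1 and Hspe1, the 3 genes of each family with the smallest p and the 2 with the highest signal, and the 5 with the widest range between probe sets, 25 in all. Hspa1a, named for its likeness to Hspa1b, was chosen after its values were seen; other members are named where a count is listed. Of the co-chaperones, the 3 with the smallest p were named. Alternatives were other scalings, filters and variance models, a replicate block and arrays left out. Figures were drawn with matplotlib 3.10.9.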

Additional observations from a re-analysis of the deposited data

How the results depend on the processing

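No probe set of the table, no member and no member pair passed the adjusted threshold under any of the 15 alternatives; with both replicate 3 arrays left out 2 pairs of the whole table passed, neither of a member. The count of members at an unadjusted p under 0.05 was 12, and 8 to 22 with each array left out (22 with the replicate block). Of all 22518 tested probe sets 1458 had such a p in the main fit, and 3042 with the replicate block. With each array left out that background count ran from 936 to 3162. The median of the members was -0.037, ran from -0.078 to 0.025 with each array left out, and was 7.4e-05 without both replicate 3 arrays. The number of the 8 marker lists whose groups did not overlap was 1, and 1 to 3 with each array left out (2 without both replicate 3 arrays). Median centring also gave 1, but the separated list was immune markers in place of nerve and glia markers. A difference was counted as turned only where it exceeded its SE on both sides, and no named probe set met this. Replicate numbers were not taken as pairs: deviations of same-numbered arrays correlated at 0.476, 0.078 and 0.706, and BPA replicate 2 correlated best with control replicate 1. Each replicate 3 array correlated negatively with the replicate 1 and 2 arrays of the other group (-0.665 to -0.352). What the replicate 3 arrays share is not modelled in the main fit. With the replicate block the smallest adjusted p was 0.190 for the table and 0.0725 for member pairs. After median centring, 69 of the 128 members were lower by mean. With 3 arrays per group, a log2 change of 1 is often missed.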
